A study of Mus musculus with 6 samples.

Results

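Among the nuclei of the developing mouse suprachiasmatic nucleus (SCN), the annotation that came with the data sets aside a small neuronal cluster without an identity, called unidentified neuronal cells. Its members were taken from that annotation, and they number 79 of 22796 annotated nuclei. SCN tissue was micro-dissected between ZT3 and ZT5 from wild-type C57BL6/J mice at gestational day 17.5 (GD17.5) and at postnatal days 2, 10 and 30 (PND2, PND10 and PND30), and the RNA of single nuclei was counted. Each stage was a pool of 10 animals, with 1 male and 1 female from each of at least 5 mothers, so that no value can be traced to an animal. GD17.5 and PND2 have 1 library each. PND10 and PND30 have 2 libraries each, made by repeating the library preparation and sequencing, and the spread between those 2 libraries may therefore be technical.

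The SCN is the central circadian clock of mammals, a paired hypothalamic nucleus that receives light signals through the retinohypothalamic tract. Its neurons are commonly grouped by neuropeptide: Avp+ neurons lie mainly in the dorsal shell and Vip+ neurons mainly in the ventral core. The annotation also holds Cck+ and Nms+ neurons, early SCN neurons (the cluster called simply SCN neurons, found mainly around birth), extra-SCN neurons from the surrounding hypothalamus, and glial, microglial and endothelial cells. The marker given for the unidentified cluster is Chchd10, which encodes a protein of mitochondria. The count tables used here carry no gene names, so neither Chchd10 nor any neuronal or glial marker gene could be read. The label was therefore checked against the features, that is the rows of the count table, that lead the other annotated clusters.

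The unidentified nuclei were found at the 3 younger stages and in neither PND30 library. There were 10 at GD17.5, 26 at PND2, 18 in PND10 replicate 1 and 25 in PND10 replicate 2. As a share of all annotated nuclei these were 0.203% at GD17.5 (exact Clopper-Pearson 95% interval 0.0975 to 0.373%) and 0.468% at PND2 (0.306 to 0.685%). The PND10 libraries held 1.32% (0.786 to 2.08%) and 0.530% (0.343 to 0.782%), a mean of 0.926% ± 0.560 (SD, n = 2). The intervals cover counting error only, and those of the PND10 libraries just miss each other, so the spread between libraries of 1 stage exceeded counting error and was larger than the step from PND2 to PND10 replicate 2. At PND30, taking 3 counts as the limit that a count of 0 allows, 0 of 771 nuclei allow a share of up to 0.389% and 0 of 5468 nuclei a share of up to 0.0549%. The exact Clopper-Pearson upper bounds are 0.477% and 0.0674%. Both bounds of the larger library lie below the lower bound at each younger stage, while 0.477% lies above the shares at GD17.5 and PND2. Of the neuronal nuclei alone, the unidentified ones made up 0.232, 0.559, 1.97 and 0.674% in the order GD17.5, PND2, PND10 replicate 1 and PND10 replicate 2, the order used below. All 79 nuclei could be placed in a library by their barcode, and none of their barcodes was listed in another library, although pairs of libraries shared between 0 and 83 barcodes.

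The PND2 members had a low median depth beside the other nuclei of their library. Depth is given as unique molecular identifiers (UMIs), each of which marks 1 captured RNA molecule. At GD17.5 the unidentified nuclei had 818 to 10110 UMIs with a median of 3589.5, against a median of 4952 in all other nuclei. At PND2 they had 802 to 29307 UMIs with a median of only 1483.5, against 4900. In PND10 replicate 1 the range was 766 to 22132 and the median 6197, against 8409. In PND10 replicate 2 it was 2236 to 19881 and the median 5638, against 4547. The ranges overlapped widely with the other nuclei in every library, but 14 of 26 PND2 members (53.8%) had fewer than 1500 UMIs, compared with 1.41% of the other PND2 nuclei. At GD17.5, 3 of 10 lay under that depth (2.00% of the others), in PND10 replicate 1 it was 1 of 18 (2.01%), and in replicate 2 it was 0 of 25 (4.12%). Among clusters of at least 10 nuclei, the unidentified nuclei had the lowest median UMI count at PND2, the second lowest at GD17.5 and in PND10 replicate 1, and the second highest in PND10 replicate 2. A further small neuronal cluster was as shallow at PND2: the 46 Avp+ nuclei had a median of 1487.5 UMIs.

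Over the 4 libraries, the log2 ratio of median UMIs, unidentified over other nuclei, was -0.46, -1.72, -0.44 and 0.31, a mean of -0.58 ± 0.84 (SD, n = 4). It was negative in 3 of 4 libraries, and an exact two-sided sign-flip permutation test over libraries gave p = 0.25. The smallest p of that test with 4 libraries is 2 of 16 sign patterns, so it cannot reach 0.05. The PND10 libraries may come from 1 pool of animals. Averaged first, so that each of 3 stages counts once, they gave a mean of -0.75 ± 0.87 (SD, n = 3; exact permutation p = 0.25, the smallest this test allows). PND2 set much of the mean over libraries, which was -0.20 without it. A few deep nuclei also carried much of each group's RNA, since the deepest nucleus held 24.5, 26.0, 17.7 and 12.5% of the group's UMIs. The total over the group was 41258, 112605, 124728 and 159469 UMIs, so that 1 UMI stands for 24.2, 8.88, 8.02 and 6.27 counts per 1000000 UMIs (CPM) of the group.

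**Figure D1:**
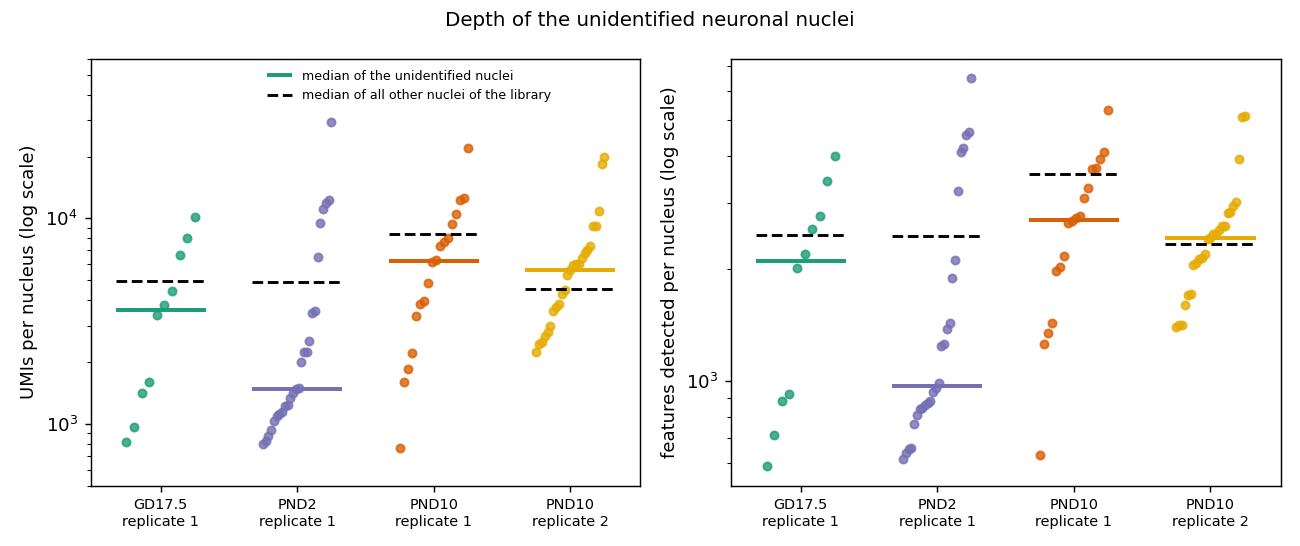
UMIs per nucleus (left) and features detected per nucleus (right), both on log scales, for each of the 79 unidentified nuclei, which are ordered by value within a library. Coloured lines are their medians and dashed lines the medians of all other nuclei of the library; the PND2 median of 1483.5 UMIs lies far below the 4900 of the other nuclei, while in PND10 replicate 2 the order is the opposite.

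The number of features detected followed depth. The median was 2099.5 features per nucleus at GD17.5 (others 2466), 970 at PND2 (others 2444), 2704.5 in PND10 replicate 1 (others 3580) and 2418 in PND10 replicate 2 (others 2334). Each nucleus was then thinned at random to 1500 UMIs, which left out 18 of the 79. The medians came much closer at GD17.5, at PND2 and in PND10 replicate 1. In PND10 replicate 2 the unidentified median went from above to below that of the others. The medians were then 1071 and 1025 at GD17.5 (7 unidentified nuclei), 1041 and 1020 at PND2 (12 nuclei), 1007 and 1044 in PND10 replicate 1 (17 nuclei) and 952 and 1015 in replicate 2 (25 nuclei), with the unidentified nuclei first. They were thus slightly higher at the perinatal stages and slightly lower at PND10. Of the other nuclei, 17.3, 35.0, 72.9 and 87.2% had more features than the unidentified median. The mean log2 ratio was -0.013 ± 0.072 (SD, n = 4; exact sign-flip permutation p = 0.875, with the same smallest p). Leaving out either PND10 library turned its sign, to 9.64e-05 without replicate 1 and 0.014 without replicate 2, and so did averaging them first (0.00683, n = 3 stages).

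The cluster that the unidentified nuclei most resembled changed with stage. For each nucleus of at least 1500 UMIs, the thinned profile over 2000 variable features was correlated with the mean profile of every other cluster of at least 20 nuclei in the same library. At GD17.5, 7 of 7 nuclei were nearest to early SCN neurons. At PND2, 12 of 12 were. In PND10 replicate 1, 14 of 17 were nearest to extra-SCN neurons, 2 to Vip+ and 1 to Avp+ neurons, and in replicate 2 all 25 were nearest to extra-SCN neurons. No nucleus of this depth was nearest to a glial cluster. Each of these nearest clusters was also the largest or the second largest neuronal cluster of its library, and since clusters come from the same counts these values are descriptions.

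The size of the correlations shows how clear the choice was. At GD17.5 the median Pearson r was 0.561 with early SCN neurons, 0.464 with Vip+ neurons, 0.353 with NG2 cells/oligodendrocyte progenitor cells (OPCs) and 0.268 with immature astrocytes/ependymal cells. At PND2 it was 0.623 with early SCN neurons, 0.543 with Vip+ neurons, 0.498 with Avp+ neurons, 0.458 with OPCs and 0.248 with microglia. At PND10 the median with extra-SCN neurons was 0.656 in replicate 1 and 0.628 in replicate 2, and the next was Vip+ neurons with 0.553 and 0.544. By these medians, each neuronal cluster ranked above each glial one at every stage. The ranges were wide in PND10 replicate 1, where single nuclei correlated with extra-SCN neurons at between 0.345 and 0.705, and narrower in replicate 2, at 0.504 to 0.723.

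**Figure D2:**
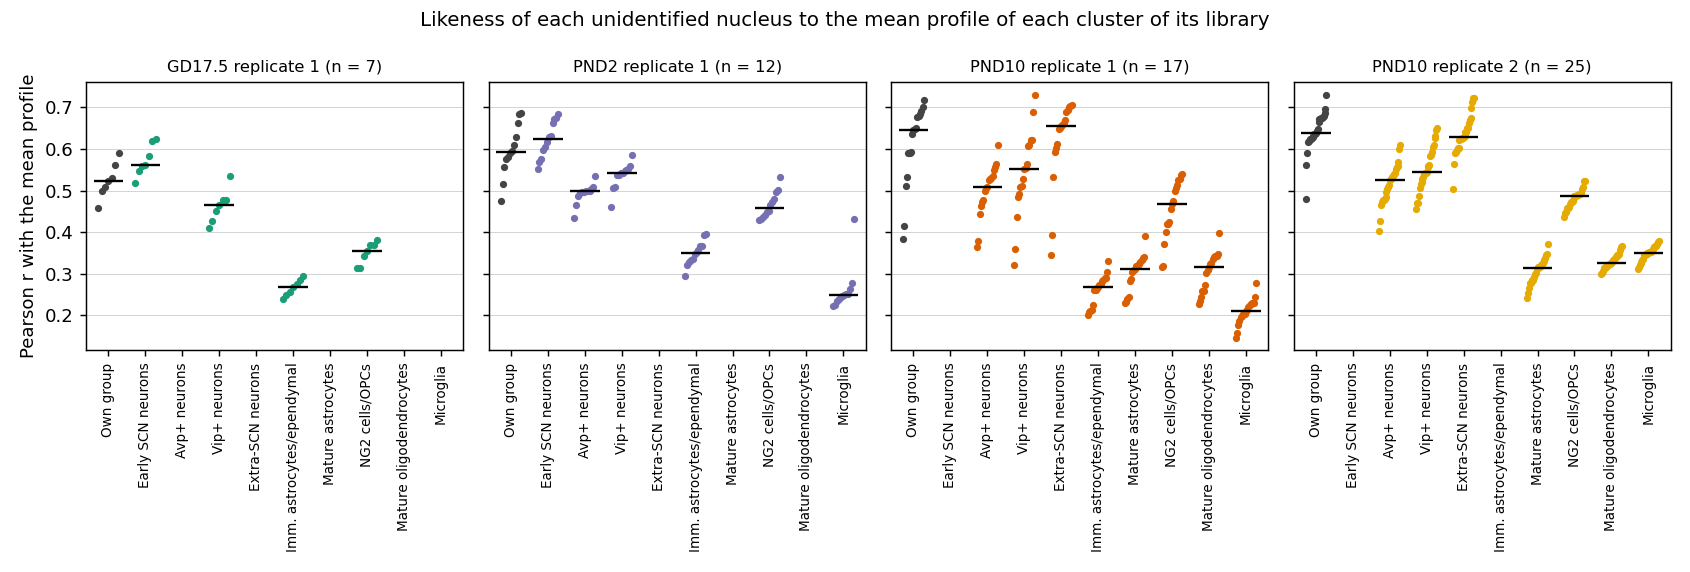
Pearson correlation of each unidentified nucleus (points, ordered by value) with the mean profile of its own group without itself (grey) and of each other cluster of at least 20 nuclei of its library (coloured), after thinning to 1500 UMIs. Lines are medians, and clusters without points had fewer nuclei in that library; early SCN neurons lead at GD17.5 and PND2 with medians of 0.561 and 0.623, and extra-SCN neurons at PND10 with 0.656 and 0.628.

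At a depth of 750 UMIs, which keeps all 79 nuclei, 35 were nearest to early SCN neurons, 40 to extra-SCN neurons, 2 to Avp+ neurons, 1 to Vip+ neurons and 1 to OPCs. The 35 were all perinatal and the 40 all from PND10. The nucleus nearest to OPCs came from PND2 and had fewer than 1500 UMIs. The PND10 members were also set against the clusters of PND30 replicate 2, where no nucleus carries the unidentified label. There, 17 of 17 and 25 of 25 were nearest to the extra-SCN neurons of PND30, with a median r of 0.636 and 0.614, and Vip+ neurons came next with 0.534 and 0.523.

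The unidentified nuclei were seldom each other's neighbours. Among the 5 nearest nuclei in the space of 30 principal components, the share that carried the same label was 0% at GD17.5, 6.67% at PND2, 10.6% in PND10 replicate 1 and 25.6% in replicate 2. The label made up 0.145, 0.220, 1.28 and 0.553% of the nuclei searched, so the PND2 and PND10 values lay above that base. At PND2 the share rests on 4 nuclei with 1 such neighbour each, and it was 4.17% with 10 neighbours, 3.33% without thinning and 1.67% with 15 components. Of 61 nuclei, 35 had no neighbour of their own label and 26 had at least 1. Only 5 had 3 or more, all in PND10 replicate 2 and with 2515 to 6013 UMIs. The remaining neighbours were mostly of the nearest cluster. Early SCN neurons made up 100% of the neighbours at GD17.5 and 93.3% at PND2, and 82.4 and 60.0% of the nuclei searched. Extra-SCN neurons made up 74.1 and 68.8% of the neighbours in the PND10 libraries, and 30.2 and 26.8% of the nuclei searched.

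Some clusters as small as this one held together in the same space, and others did not. Microglia, with 14, 32, 27 and 37 nuclei in these libraries, had 80.0, 84.4, 77.8 and 60.0% of neighbours of their own label. Mature oligodendrocytes, which form myelin, had 91.4, 97.0 and 94.3% in PND2 and the PND10 libraries, with 7, 20 and 49 nuclei. For endothelial cells it was 37.8% over 9 GD17.5 nuclei and 67.5% over 16 PND2 nuclei. Other small clusters were close to the unidentified nuclei in this respect, with 7.27% for 22 Avp+ nuclei at PND2, and 12.2% for 18 Cck+ nuclei and 22.9% for 7 immature astrocytes/ependymal cells in PND10 replicate 2. The value of 25.6% in that library was 14.4% when 15 principal components were used.

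**Figure D3:**
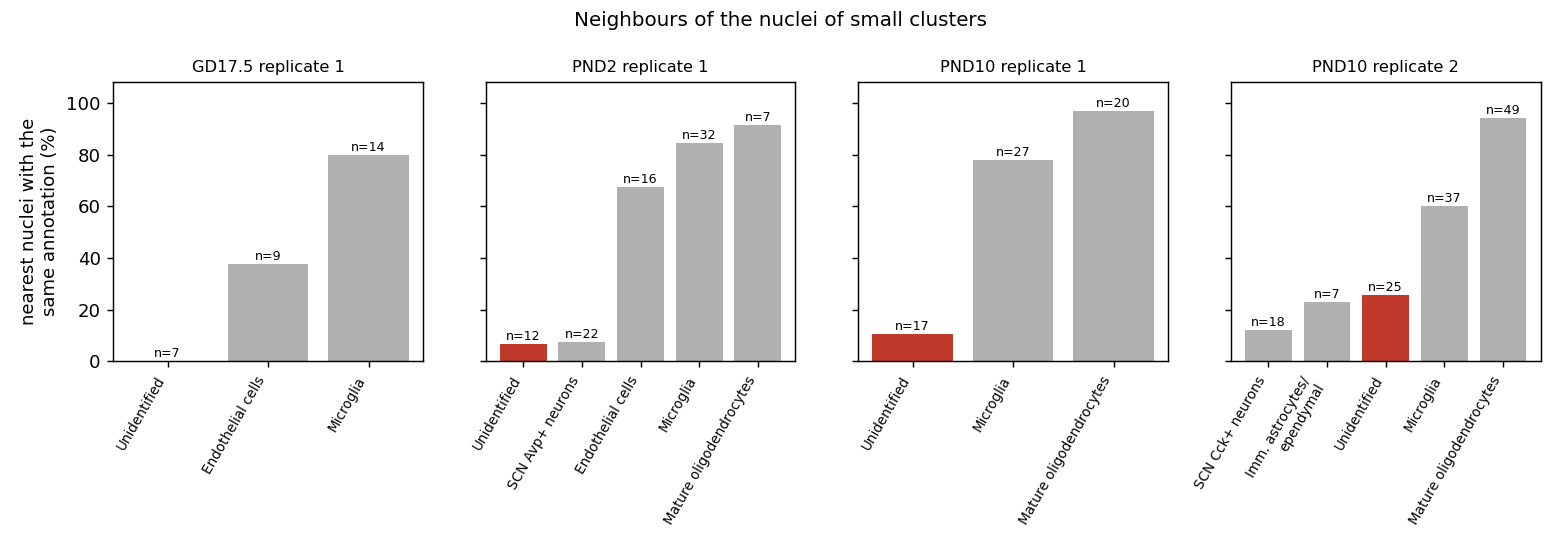
Share of the 5 nearest nuclei with the same annotation for the unidentified nuclei (red) and the other clusters of 7 to 60 nuclei (grey), by library; n is the number of nuclei of at least 1500 UMIs. The unidentified nuclei are lowest in 3 of 4 libraries, and in PND10 replicate 2 they reach 25.6%, near the immature astrocytes/ependymal cells at 22.9% and far under the mature oligodendrocytes at 94.3%.

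The same was seen across libraries. Neighbours of the GD17.5 members sought among the PND2 nuclei carried the label in 2.86% of cases, and in the reverse search in 1.67%. Between the PND10 libraries the shares were 5.88% from replicate 1 to 2, where 5 of 17 nuclei found at least 1, and 8.80% in the other direction, where 9 of 25 did. For microglia the corresponding shares were 78.6, 84.4, 77.8 and 62.2%. For mature oligodendrocytes they were 96.0 and 95.9% between the PND10 libraries. The neighbours found in place of unidentified nuclei were again early SCN neurons (97.1 and 98.3%) and extra-SCN neurons (81.2 and 83.2%). Of the nuclei searched, these clusters made up 60.0 and 82.4%, and 26.8 and 30.2%.

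Against mean profiles the outcome depended on how many nuclei made up the means. The label comes from clustering these same counts, so likeness to the own group is fixed in part. Only 17 of 61 nuclei correlated more with the mean of their own group, themselves left out, than with every other mean. A mean of few nuclei is noisy, however. When the other means came from equally few nuclei, in a single random draw, 40 of 61 were closest to their own group. These were 5 of 7, 8 of 12, 8 of 17 and 19 of 25 nuclei. With means of equal size, 17 of 18 Cck+ nuclei and 47 of 49 mature oligodendrocytes of PND10 replicate 2 were closest to their own cluster. Of the microglia there, 22 of 37 were, and of the Avp+ nuclei at PND2, 13 of 22 were.

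Features that lead other clusters put the same cluster first as the correlations did. For each other cluster the 50 features with the highest fold over the remaining nuclei were summed, with the unidentified nuclei left out of that choice. The early SCN neuron features reached 118% of their level in early SCN neurons at GD17.5 and 85.6% at PND2, against 15.1 and 23.0% in all nuclei outside that cluster. The extra-SCN neuron features reached 75.8 and 98.9% in the PND10 libraries, against 14.2 and 16.9%. Of single nuclei, 10 of 10 at GD17.5 and 23 of 26 at PND2 lay above the lowest 10% of the early SCN neurons. At PND10, 15 of 18 and 16 of 25 lay above the lowest 10% of the extra-SCN neurons. The PND10 groups therefore held 3 and 9 nuclei with no more of these features than the lowest 10% of extra-SCN neurons, and 2 of the 18 in replicate 1 lay above the lowest 10% of the Vip+ neurons for Vip+ features.

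Glial features were low in the unidentified nuclei, with OPC features at PND10 as the highest. The highest glial level was 4.03% of the cluster's own at GD17.5 (immature astrocytes/ependymal cells) and 7.70% at PND2 (OPCs). OPC features stood at 14.4 and 12.9% in the PND10 libraries, or 6029 and 3907 CPM, compared with 3583 and 2106 CPM in the extra-SCN neurons of the same libraries. In replicate 2, 1 nucleus of 25 had 27094 CPM of OPC features, above the lowest 10% of the OPCs, while the median over the group was 1839 CPM. Astrocyte and oligodendrocyte features at PND10 stood between 2.25 and 4.64% of their level in those cells. Microglial features were at 2.35, 2.03 and 1.10% in PND2 and the PND10 libraries, where microglia were numerous enough to define them. At PND2 the median over the unidentified nuclei was 0 CPM and the highest nucleus had 9122 CPM. The part of these levels in the feature differences below was not tested.

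**Figure D4:**
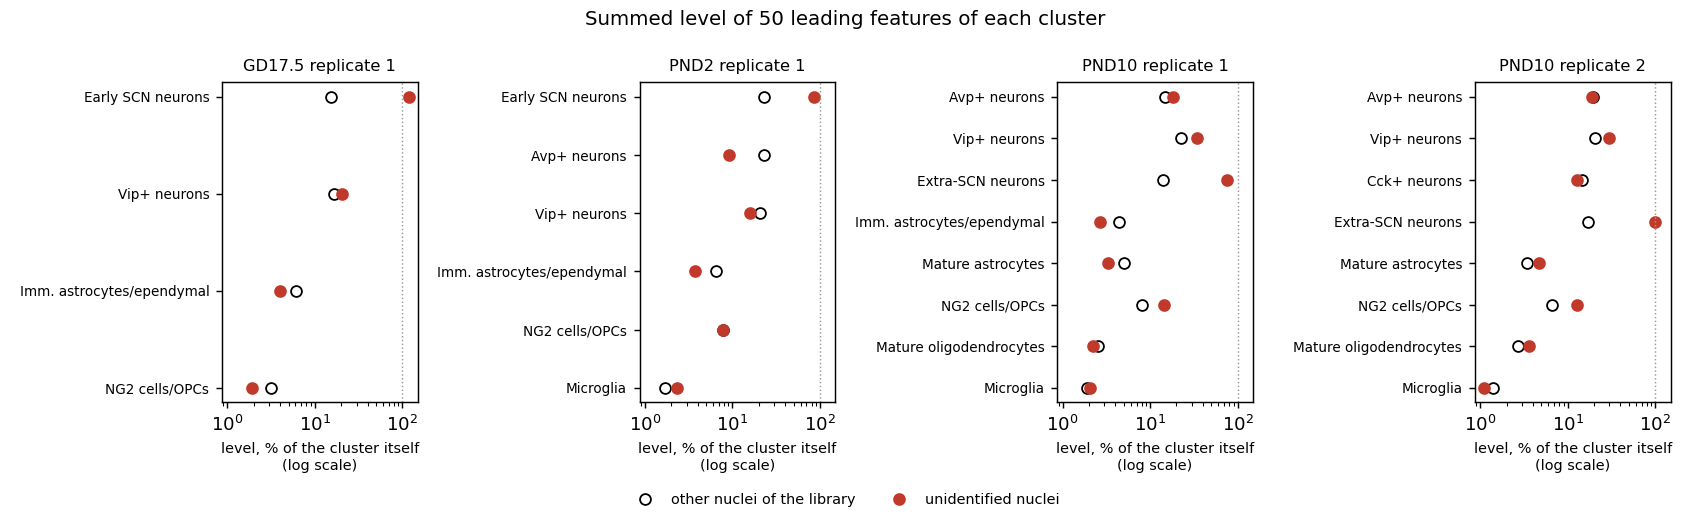
Summed CPM of the 50 leading features of each cluster, as a percentage of the level in the cluster itself (log scale), in the unidentified nuclei (red) and in all other nuclei outside the cluster (open circles). Red points approach 100% for early SCN neurons at GD17.5 and PND2 (118 and 85.6%) and for extra-SCN neurons at PND10 (75.8 and 98.9%), and stay at or under 14.4% for the glial clusters.

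Few features stood well above the other nuclei of a library, and at the settings used here more stood below. Summed counts of the unidentified nuclei were compared with those of all other nuclei of the same library as CPM with 10 CPM added to both sides, and a difference of at least 4-fold was counted. These are descriptions of 1 sum against another, without a test. At GD17.5, 121 of 28329 features (0.427%) were higher and 731 (2.58%) lower. At PND2, 22 of 28588 (0.077%) were higher and 159 (0.556%) lower. In PND10 replicate 1 the counts were 17 (0.0606%) and 229 (0.816%) of 28070, and in replicate 2 they were 39 (0.142%) and 90 (0.327%) of 27530. The GD17.5 counts rest on little RNA. Among features that passed a minimum of 10 UMIs, 9 of 1005 were higher and 32 lower at GD17.5. At PND2 these counts were 17 and 46 of 2999. They were 13 and 72 of 3146 in PND10 replicate 1 and 35 and 37 of 3743 in replicate 2. With 50 CPM added in place of 10, replicate 2 had 8 higher and 3 lower features. When each nucleus had equal weight, the higher features numbered 306, 134, 209 and 45. Of the lower features, 667, 103, 145 and 50 had no UMI at all in the group. Fewer still were 4-fold above every other cluster of at least 20 nuclei, of which these libraries had 4, 6, 8 and 8: 63 at GD17.5, 8 at PND2, and 3 and 8 at PND10. Single nuclei weighed heavily, since of the 74 higher features with at least 10 UMIs over the 4 libraries, 29 had more than 50% of their UMIs in 1 nucleus.

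No feature was 4-fold higher, or 4-fold lower, in all 4 libraries. Of 192 features that were higher in any library, 185 were so in 1 library and 7 in 2. Of 1060 lower features, 933 were so in 1 library, 105 in 2 and 22 in 3. GD17.5 and PND2 shared 59 lower features, 37.1% of those of PND2, where 2.58% of all features were lower at GD17.5. The PND10 libraries shared 20, 22.2% of those of replicate 2, where 0.816% of all features were lower in replicate 1. With at least 10 UMIs required, these pairs shared 11 and 10, 23.9% of those of PND2 and 27.0% of those of replicate 2. GD17.5 and PND10 replicate 2 shared 0. Of all features with that many UMIs, 3.18% were lower at GD17.5, 2.29% in PND10 replicate 1 and 0.989% in replicate 2. Of the 37 such lower features of replicate 2, 6 were measured at GD17.5, so that 0 carries little information. At 2-fold, 4 of the 25931 features measured in every library were higher in all 4 and 79 were lower in all 4. The lower count of 0 depended on the settings and on single libraries. It was 403 with 1 CPM added, 3 with equal weight of nuclei and 2 without the deepest nucleus of each library. With 10 CPM, 4 features were 4-fold lower in the other 3 libraries without GD17.5, 4 without PND2 and 14 without PND10 replicate 2, and 0 without PND10 replicate 1. Between the perinatal libraries, 3 higher features were shared, 2.48% of those of GD17.5 and 13.6% of those of PND2, where 0.077% of all features were higher at PND2 and 0.427% at GD17.5. With at least 10 UMIs required, 0 were shared. Of the 9 such features of GD17.5, 7 were measured at PND2, and of the 17 of PND2, 1 was measured at GD17.5. Among all features with that many UMIs, 0.567% were higher at PND2 and 0.896% at GD17.5, so the 0 carries little information.

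The feature that came nearest to a mark of the whole group was row 13284 of the count table, chosen for the largest minimum fold over the libraries. It stood at 1236 CPM against 325 in other nuclei at GD17.5, 622 against 266 at PND2, 1122 against 97.8 in PND10 replicate 1 and 539 against 116 in replicate 2. The log2 fold ran from 1.19 to 3.39, and that it was above 0 in each library follows from the choice. The cluster with the next highest level was the nearest one in each library, with 374 and 401 CPM in early SCN neurons and 213 and 284 CPM in extra-SCN neurons. It was found in 7 of 10, 7 of 26, 12 of 18 and 11 of 25 of them. A single nucleus held 68.6, 58.6, 46.4 and 64.0% of its UMIs, so the level was not evenly spread. At equal depth of 1500 UMIs it was detected in 71.4, 16.7, 35.3 and 12.0% of the unidentified nuclei and in 18.9, 19.3, 7.60 and 8.07% of the others, so that at PND2 fewer of the unidentified nuclei than of the others had it. Row 28777, the next in order, was more even in its fold. It had 194, 222, 265 and 207 CPM in the unidentified nuclei against 69.8, 94.0, 96.4 and 66.1 in the others, which is 1.16 to 1.51 higher on the log2 scale.

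Among the lower features, row 17244 led by the same rule. It had 24.2 CPM against 105 at GD17.5, 17.8 against 311 at PND2, 136 against 466 in PND10 replicate 1 and 43.9 against 403 in replicate 2. The group held 1, 2, 17 and 7 UMIs of it. In the other nuclei its highest level at PND2 was in Avp+ neurons (999.9 CPM) and in PND10 replicate 1 in immature astrocytes/ependymal cells (1111 CPM). The other cluster with the least of it had 58.9, 80.6, 32.0 and 15.4 CPM. In both PND10 libraries another cluster thus had less of it than the unidentified nuclei. Row 5373 followed with 0, 2, 3 and 4 UMIs in the unidentified nuclei, and with 86.8, 77.4, 181 and 208 CPM in the others. At GD17.5 a count of 0 allows up to 72.7 CPM, close to the level of the other nuclei, so that its lack there was hardly detectable at this depth.

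Most of the features that many PND10 members of 1 library shared were also higher in the other PND10 library. The comparison was with all other nuclei, glia included, so features of the extra-SCN neurons can be among them. Only 3 features of replicate 1 and 8 of replicate 2 were 4-fold above every other cluster of at least 20 nuclei. In replicate 1, 8 features with at least 10 UMIs were 4-fold higher and detected in at least 50% of the unidentified nuclei. In replicate 2, whose folds were not used to choose them, 8 of these 8 were higher than in the other nuclei. By at least 2-fold it was 6 of them and by 4-fold 2, and the median over the 8 was 1.59 on the log2 scale. The label in both libraries came from clustering these same counts together, so the other library is no independent check. Of the 10 chosen in replicate 2 in the same way, 9 were higher in replicate 1, 5 by at least 2-fold and 0 by 4-fold, with a median of 0.98. The exception had 72.2 CPM against 126 in the other nuclei there, a log2 fold of -0.73. The median over all features was -0.06 in replicate 2 and -0.08 in replicate 1. Of these, the feature found in the most unidentified nuclei of replicate 2 at the highest level had 3813 CPM against 577 in the others and was found in 24 of 25 nuclei. In replicate 1 it had 1219 CPM against 590.

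The 2 features that passed 4-fold in both PND10 libraries differed in their course with stage. The first is row 13284, which was above the other nuclei from GD17.5 on. The second had 529 CPM against 66.2 in PND10 replicate 1 and 345 against 43.9 in replicate 2, where it was found in 13 of 18 and 9 of 25 unidentified nuclei and in 23.6 and 10.2% of the others. Extra-SCN neurons had 132 and 96.3 CPM of it. At GD17.5 and PND2 it had 0 UMIs in the unidentified nuclei, which allows up to 72.7 and 26.6 CPM, against 25.9 and 84.8 CPM in the other nuclei. By these sums the group lay below the other nuclei at PND2 and above them at PND10. The limit at PND2 covers counting error only. There 14 of 26 members had fewer than 1500 UMIs, and 19.1% of the other nuclei had the feature.

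**Figure D5:**
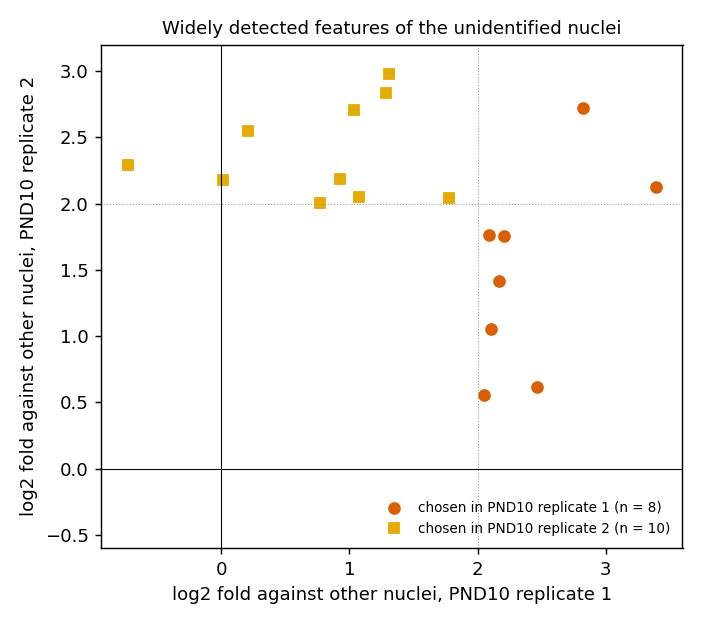
Log2 fold of the unidentified over all other nuclei in PND10 replicate 1 (horizontal) and replicate 2 (vertical) for the widely detected features chosen in replicate 1 (circles, n = 8) and in replicate 2 (squares, n = 10); dotted lines mark 4-fold. All 8 circles lie above 0 in replicate 2 and 9 of 10 squares above 0 in replicate 1, while 2 features pass 4-fold in both.

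The unidentified nuclei of PND2 and PND10 were also compared with each other. In both PND10 libraries 70 of 29709 features (0.236%) were at least 4-fold higher than at PND2 within the unidentified nuclei, and 68 (0.229%) were 4-fold lower. The median change of these features was 2.44 and -2.35 on the log2 scale. In the other neuronal nuclei the same features had a median change of 0.06 and -0.12, none of either set changed by 4-fold, and 33 of the 70 and 37 of the 68 moved in the same direction. The features were chosen for a large change in sums of few nuclei, so that a smaller change in the other neurons is fixed in part by the choice, and nothing is read from it. Over all features, 3 were 4-fold higher and 1 lower in the other neurons. PND2 has 1 library and there is no test. With 1 PND10 library in place of both, 232 or 250 features were higher and 258 or 294 lower. Stage, depth and the nearest cluster changed together here, and their parts cannot be told apart.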

How the data were processed

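The authors prepared 10x Genomics 3′ libraries from nuclei, counted UMIs with Cell Ranger 5.0.1 on the mm10 build and deposited these counts as they were, unnormalized. They clustered the nuclei of all stages with Seurat 4, after removing doublets and nuclei of under 750 UMIs, and deposited the cluster of each nucleus, which was used as given. The annotation marks a nucleus by barcode and stage suffix. Each suffix was assigned to the stage whose libraries held at least 99.98% of its barcodes, and the library was read from the barcode. Columns of values not used numbered 0.

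Members and lists were chosen with earlier results of these data known. UMIs were drawn without replacement to 1500 per nucleus (shallower nuclei left out), scaled to 10000 and log-transformed. The 2000 most variable features of a library gave the correlations and 30 principal components. Folds are of CPM of summed counts with a pseudocount of 10 CPM. Rows of the count table have no names here. The rule for named features was the 2 with the highest and the 2 with the lowest log2 fold, ranked by the least extreme library. Nuclei of 1 library are not replicates, so only depth and complexity were tested, by an exact sign-flip permutation over 4 libraries. Library depths among the unidentified nuclei were 41258 to 159469 UMIs in all, and intervals cover counting error only. The feature rule and the neighbour measure were tested on data simulated from the GD17.5 library and PND10 replicate 2. The other steps were not simulated. Alternatives changed the depth of thinning, features, components, pseudocount, fold, count minimum, comparison nuclei or the libraries used. Python 3.11.15, numpy 2.4.6, scipy 1.17.1, scikit-learn 1.9.0 and matplotlib 3.10.9 were used.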

Additional observations from a re-analysis of the deposited data

How the results depend on the processing

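Over all alternatives, 84 values of the main results stayed within their limits, 60 moved and 4 changed direction. No paired analysis was possible because PND30 holds 0 unidentified nuclei, so no test sets PND10 against PND30, the stages that share replicate numbers. Both tests pair values within a library. Without 1 library, the depth ratio ranged from -0.876 to -0.198 (log2), complexity from -0.0384 to 0.0136, and the PND10 share from 0.530 to 1.32%. Complexity was 0.00205 at 2500 UMIs, 9.64e-05 without PND10 replicate 1 and 0.0136 without PND10 replicate 2. The neighbour share was 1.67% at PND2 and 14.4% in PND10 replicate 2 with 15 components, and 36.0% in the latter without thinning. The share of nuclei nearest to the leading cluster was 100% at GD17.5 in each alternative run, at least 96.2% at PND2, 76.5 to 88.2% in PND10 replicate 1 and at least 92.0% in replicate 2.

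Counts of features depended strongly on the settings. In the order GD17.5, PND2, PND10 replicate 1 and replicate 2, higher features numbered 827, 590, 678 and 742 with a pseudocount of 1 CPM, 3, 3, 5 and 8 with 50 CPM, and 1762, 930, 491 and 438 at 2-fold (4 in all libraries). With at least 10 UMIs GD17.5 had 9. Lower features numbered 5795, 3406, 3804 and 2579 with 1 CPM (403 in all libraries), 38, 8, 17 and 3 with 50 CPM, 3259, 1573, 2058 and 1484 at 2-fold (79 in all), and 32, 46, 72 and 37 with at least 10 UMIs. Against other neurons only they were 103 at PND2 and 118 in PND10 replicate 1. Lower features of all remaining libraries ranged from 0 to 14 without 1 library.

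Further alternatives were chosen after seeing the data. With the PND10 libraries averaged first, complexity was 0.00683. With equal weight of nuclei, higher features were 306, 134 and 209 in the first 3 libraries, and lower ones 278 at PND2, 159 in PND10 replicate 2 and 3 in all libraries. Without the deepest nucleus, 209 were higher at GD17.5 and 2 lower in all libraries. With a UMI in 25% of nuclei, higher features were 40, 5, 10 and 23. The change with stage gave 640 higher and 1094 lower features at 2-fold, 5 and 5 with 50 CPM, and 232 to 250 and 258 to 294 with 1 PND10 library. The highest glial level in PND10 was 6.05% with 20 features in replicate 1 and 20.4% with 100 in replicate 2. Depth limits the GD17.5 counts most, with 24.2 CPM per UMI.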
